A study of Homo sapiens with 3 samples.

Results

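This account covers 10 genes that act on or beside the serine/arginine-rich (SR) splicing factors: the kinase genes CLK1, CLK2, CLK3, CLK4, SRPK1 and SRPK2, the SR-like splicing activator genes TRA2A and TRA2B, and the splicing coactivator genes SRRM1 and SRRM2. They are the rows with these symbols among 57268 gene identifiers, 1 row for each, and the rule that picks them uses names and not values. RNA was sequenced from HEK293T, a cell line derived from human embryonic kidney, with 1 library for each of 3 groups. These were control cells that overexpressed nothing, cells with ADAR2 overexpression only, and cells in which ADAR2 and SRSF9 were overexpressed together. ADAR2 is an RNA-editing adenosine deaminase encoded by ADARB1, SRSF9 is an SR protein, and the series was designed around the effect of SRSF9 on editing of ADAR2 targets. The labels name neither the vector nor a vector-only control, so an overexpressed protein and the overexpression procedure cannot be told apart.

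SR proteins carry a domain of alternating arginine and serine residues, and their location and activity depend on its phosphorylation. In the usual scheme the SRPK kinases phosphorylate this domain in the cytoplasm, which favours import into the nucleus, and the CLK kinases phosphorylate it further in the nucleus, which releases SR proteins from nuclear speckles to sites of splicing. TRA2 proteins bind purine-rich exonic enhancers, and SRRM1 and SRRM2 are large RS-domain proteins of the spliceosome and of speckles, where SRRM2 is a core scaffold. Several of these genes, among them CLK1, CLK4, TRA2A and TRA2B, are known to limit their own messenger RNA through retained introns or exons that bring a stop codon. Counts per gene cannot separate such forms from productive transcripts.

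The 4 CLK genes are paralogs. The stretch around the LAMMER motif of CLK1, CLK2 and CLK4, with the aligned stretch of CLK3, shows how they differ in base composition. The 54 bases lie in exon 11 of 13 of each gene's principal transcript, within the coding sequence, and are read from GENCODE v29 on GRCh38 (the submitters' processing notes name hg19). The 6 codons of the motif, or those aligned with it in CLK3, are in capitals. A search for the motif found it in CLK1, CLK2 and CLK4 and not in CLK3, whose stretch was placed by alignment to CLK2.
CLK1, chr2:200854639-200854692, minus strand: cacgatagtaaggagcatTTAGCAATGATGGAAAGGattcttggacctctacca
CLK4, chr5:178605326-178605379, minus strand: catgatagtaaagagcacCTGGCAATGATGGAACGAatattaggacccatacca
CLK2, chr1:155264244-155264297, minus strand: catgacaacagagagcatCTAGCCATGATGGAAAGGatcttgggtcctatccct
CLK3, chr15:74628607-74628660, plus strand: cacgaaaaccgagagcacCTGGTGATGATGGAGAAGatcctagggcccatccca
CLK1 and CLK4 both have 42.6% G and C here, against 48.1% in CLK2 and 55.6% in CLK3. CLK1 and CLK4 differ at 12 of the 54 bases, 8 of them at the third position of a codon, and CLK1 and CLK3 at 19, with 12 at the third position. The same division holds over whole coding sequences. At the third codon position G or C makes up 34.9% of bases in CLK1 and 37.0% in CLK4, but 61.8% in CLK2 and 70.6% in CLK3.

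Paralogs can share reads only where they share sequence, so the longest identical run between principal transcripts was found for each pair. The longest was 34 bases, in exon 4 of both CLK1 (chr2:200860151-200860184) and CLK4 (chr5:178617370-178617403), coding in both. In CLK1 exon 4 is known to be skipped in an alternative transcript.
CLK1 and CLK4: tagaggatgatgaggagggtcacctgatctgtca
SRPK1 and SRPK2 shared at most 23 bases, in their coding exons 7 (chr6:35874279-35874301) and 6 (chr7:105160553-105160575).
SRPK1 and SRPK2: ctcaagtggatcatcaaatccaa
TRA2A and TRA2B shared at most 14 bases. Aligned coding bases were identical at 78.1% for CLK1 with CLK4, at 69.7% for SRPK1 with SRPK2 and at 70.0% for TRA2A with TRA2B. In windows of 50 bases of the longest transcripts, CLK1, TRA2A and TRA2B had 0 matches in an annotated transcript of any other gene on either strand, and no window of a member matched another member. SRRM1 had the highest shared part, 22.5% of windows, with 2 processed pseudogenes and 1 long noncoding RNA.

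The control library held 152878282 counted reads, the ADAR2 library 132887974 and the double library, with both proteins, 97875935. Levels are given as CPM, the reads per 1000000 after TMM scaling. The overexpressed genes followed the labels, with ADARB1 at 113.6, 16100 and 13647 CPM and SRSF9 at 372, 369 and 18288 CPM in the 3 libraries. Of 11 HEK293 identity markers 10 or 11 had 3 reads or more in each library (PAX8 did not in the ADAR2 library). Their summed level was 787 to 831 CPM. In the control NEFM (299 CPM) and VIM (284 CPM) made the largest parts of it, while PAX2, LHX1 and PAX8 stood at 3.65, 3.45 and 0.032 CPM. Summed levels were 34.7 to 40.6 CPM for 7 fibroblast markers, 4.63 to 5.31 CPM for 6 blood markers and 8.25 to 9.23 CPM for 5 markers of other epithelial lines. The genes under 3 reads in at least 1 library were COL1A2 and DCN, CD3E, LYZ and PTPRC, and KRT5 and KRT14 in these lists. The part of other cell types in the results was not tested. As each group is 1 library, differences have no replicate check and no p-value, and every interval below is a 95% counting interval, which covers counting error only.

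All 10 genes were expressed, from 1969 to 181985 reads per library. SRRM2 had the highest level, 1178, 1230 and 1251 CPM in the control, ADAR2 and double libraries, above 99.5% of the 16072 genes with a mean CPM of 1 or more. CLK4 had the lowest, 22.4, 20.2 and 20.5 CPM, near the middle of those genes (percentile 50.8). Compared per kilobase of the longest annotated transcript, SRRM2 was again highest in the control (125.9 CPM per kb) and CLK4 lowest (6.03 CPM per kb). TRA2B, CLK2, SRRM1 and TRA2A lay close together at 49.2, 48.1, 48.0 and 46.0 CPM per kb, and over the 3 libraries the range of TRA2B overlapped those of the others, as did SRRM1 and TRA2A with each other, while CLK2 lay above SRRM1 and TRA2A in each library. The SRPK genes stood at 25.9 (SRPK1) and 14.0 CPM per kb (SRPK2).

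The place of CLK3 in that order, and the closeness of TRA2B, CLK2, SRRM1 and TRA2A, depended on the transcript used. CLK3 has a longest annotated transcript of 10498 bases and a principal transcript of 1846, which gave 6.63 or 37.7 CPM per kb in the control. Over principal transcripts the control levels were 67.2 for CLK2, 37.7 for CLK3, 26.6 for CLK1 and 8.74 CPM per kb for CLK4, and no ranges over the 3 libraries overlapped within this family. SRPK1 (24.6 to 26.9) and CLK1 (21.9 to 26.6 CPM per kb) did overlap. TRA2B, TRA2A and SRRM1 stood at 74.8, 55.6 and 48.0 CPM per kb in the control over principal transcripts. SRRM1 (47.2 to 48.0) and TRA2A (54.7 to 57.7 CPM per kb) no longer overlapped, and TRA2B (64.5 to 74.8 CPM per kb) lay above both. SRRM2 was the highest and CLK4 the lowest of the 10 with the longest, the principal and the median transcript length.

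**Figure D1:**
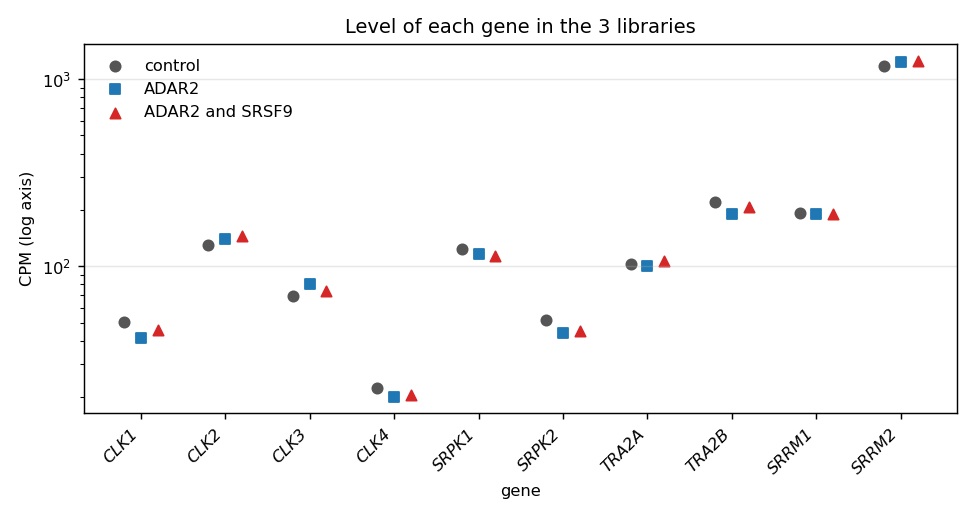
Level of each of the 10 genes (horizontal axis) in CPM on a log axis, 1 point per library, with the control as grey circles, ADAR2 as blue squares and ADAR2 with SRSF9 as red triangles. Levels run from about 20.2 CPM for CLK4 to 1251 CPM for SRRM2, and the 3 points of a gene lie within 1.22-fold of each other.

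The differences between libraries were small. The highest CPM of a gene over its lowest ranged from 1.02 for SRRM1 to 1.22 for CLK1. A gene was counted as apart when its ratio was 1.2-fold or more and its counting interval excluded 1. By that rule 1 of the 10 was apart in ADAR2 against control (CLK1, lower), where 13.9% of the 16072 genes were, and 6.46% were lower. Among genes at a mean CPM of 10 or more, as all 10 members are, 7.61% were apart. In both proteins against ADAR2 it was 0 of 10, against 13.9% of all genes and 4.31% of those with 10 CPM or more, and in both proteins against control 0 of 10, against 26.5% and 18.5%. At 1.5-fold no member was apart in any comparison, where 1.26%, 3.39% and 3.99% of all genes were. Among all genes apart by 1.2-fold, 53.5%, 41.1% and 52.1% were the higher ones, and with plain library totals 53.4%, 29.1% and 37.8%. The 3 comparisons share libraries, so they are not independent of each other.

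The first comparison asked how these genes stood when ADAR2 was overexpressed. The kinase genes split by paralog: CLK1, CLK4, SRPK1 and SRPK2 were lower than the control and CLK2 and CLK3 higher. CLK1, a nuclear SR protein kinase, stood at 50.2 CPM in control cells and at 41.3 CPM with ADAR2, a ratio of 0.823 (0.795 to 0.852), and lay at percentile 5.62 of all genes' ratios. CLK4, its closest paralog, had 22.4 and 20.2 CPM, a ratio of 0.898 (0.854 to 0.944). CLK3 was at the other end with 69.6 and 80.3 CPM, 1.154 times the control (1.124 to 1.185), at percentile 86.5. CLK2, the CLK gene with the most reads, had 129.9 and 140.6 CPM, a ratio of 1.082 (1.060 to 1.104).

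As measured, both cytoplasmic kinases were lower. SRPK2 stood at 52.0 CPM in control cells and 43.9 CPM with ADAR2, a ratio of 0.844 (0.816 to 0.873) at percentile 8.33. SRPK1 had 123.5 and 115.8 CPM, a ratio of 0.937 (0.918 to 0.957). The TRA2 paralogs differed from each other. TRA2B was at 220.8 and 190.3 CPM, a ratio of 0.862 (0.848 to 0.876), while TRA2A, at 102.6 and 100.9 CPM, had an interval that included 1 (0.983, 0.961 to 1.006). SRRM1 (192.5 and 189.2 CPM) had a ratio of 0.983 (0.966 to 0.999), and SRRM2 a ratio of 1.044 (1.037 to 1.051). In all, the interval lay below 1 for 6 genes and above 1 for 3, 9 of 10. Over all genes 32.4% lay below 1 and 31.5% above, 63.9% together. Counting intervals narrow as reads rise, and all 10 members have a mean CPM of 10 or more. The shares of all genes beyond their intervals, here and below, are not matched to the members' depth. The median log2 ratio of the 10 was -0.06, against -0.00094 for all genes.

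These ratios ran with base composition. Over the 9592 protein-coding genes used for the trend (those at 10 CPM or more on average), Spearman's rho between the log2 ratio of ADAR2 against control and the GC content of the principal transcript was 0.78, and over the 10 members it was also 0.78. This is a description across genes that share the same libraries, not a test. Transcripts of CLK1 and CLK4 had 39.0% and 38.1% GC, those of the SRPK and TRA2 genes 41.6% to 42.7%, SRRM1 47.8%, CLK2 53.0%, CLK3 55.4% and SRRM2 56.2%. With the trend over principal transcripts subtracted (a setting chosen after the data were seen), CLK4 stood at a log2 ratio of 0.0054, with the counting interval of its ratio including 1 (0.954 to 1.056). CLK1 was then at 0.913 times the control (0.882 to 0.945), SRPK2 at 0.924 (0.893 to 0.956) and TRA2B at 0.934 (0.919 to 0.949). On the higher side CLK3 was at 1.094 (1.065 to 1.123), TRA2A at 1.072 (1.048 to 1.097) and CLK2 at 1.051 (1.030 to 1.072). SRPK1, lower as measured, was at 1.016 with an interval that included 1 (0.994 to 1.037), and so was SRRM1 at 1.014 (0.997 to 1.031). SRRM2 turned from above to below the control, at 0.982 (0.976 to 0.989). None of the 10 was then 1.2-fold apart, against 6.06% of all genes with such a transcript. With the trend over longest transcripts CLK1 was likewise not apart (0.925 times), and CLK3 was, at 1.205 times (1.173 to 1.238), so that again 1 of 10 was apart, against 9.08% of genes. The longest CLK3 transcript has 46.5% GC.

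**Figure D2:**
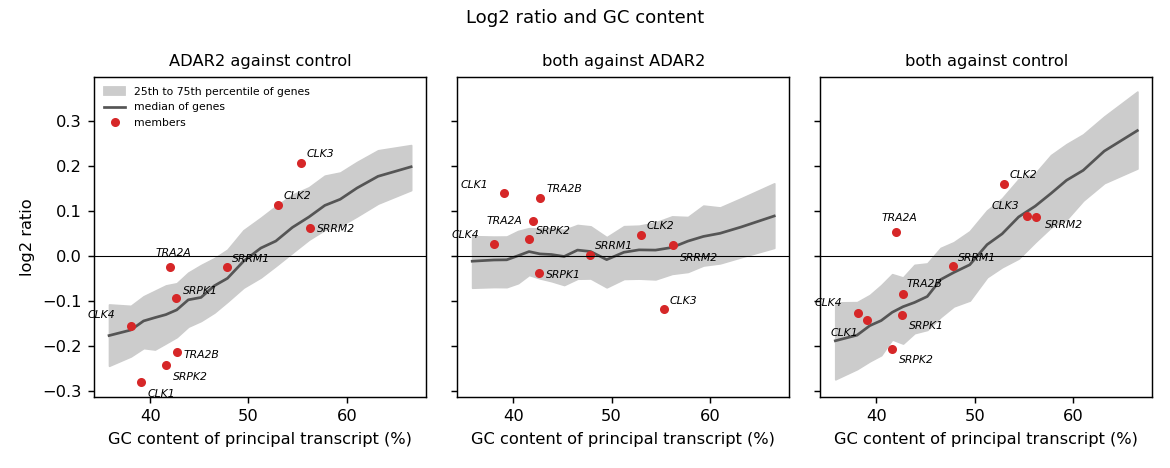
Log2 ratio (vertical axis) against the GC content of the principal transcript in percent (horizontal axis) for the 3 comparisons, with red points for the 10 members, a grey line for the median and a band for the 25th to 75th percentile of protein-coding genes in 20 bins of GC content. In ADAR2 against control CLK1 and CLK4 sit at the low-GC end below 0 and CLK2, CLK3 and SRRM2 at the high-GC end above 0, while in both against ADAR2 the median line is nearly flat.

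Next, the double library was compared with the ADAR2 library. By the labels they differ by SRSF9, and ADARB1 also stood at 0.848 times its ADAR2-library level (0.846 to 0.849). The part of that difference in the results was not tested. Here the trend with GC content was weak over all genes (rho 0.22 over the 9592 genes), and over the 10 members rho had the opposite sign, -0.45. CLK1 and TRA2B were the 2 genes furthest above the ADAR2 library and CLK3 the furthest below. CLK1 went from 41.3 to 45.5 CPM, 1.101 times (1.058 to 1.146), and TRA2B from 190.3 to 208.1 CPM, 1.093 times (1.073 to 1.114). CLK3 went from 80.3 to 74.0 CPM, 0.921 times (0.894 to 0.949). In each of these 3 genes the level with both proteins lay between those of the control and the ADAR2 library. The same ADAR2 library enters both comparisons, on opposite sides of the ratio, so the ratios are not independent.

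Of the others, TRA2A was at 1.056 times the ADAR2 level (1.029 to 1.083), which made the library with both proteins its highest, at 106.5 CPM. CLK2 was at 1.033 times (1.010 to 1.056) and SRRM2 at 1.018 times (1.010 to 1.025), both highest with both proteins and lowest in the control under TMM scaling. With plain library totals the log2 ratio of SRRM2 in this comparison turned to -0.02 and that of CLK2 was 0.0020, and with the principal-transcript GC trend removed the interval of SRRM2 included 1 (0.996 to 1.011). SRPK1 was at 0.975 times (0.951 to 0.999), and its levels were 123.5, 115.8 and 112.8 CPM over the 3 libraries. Intervals included 1 for CLK4 (0.961 to 1.080), SRPK2 (0.987 to 1.068) and SRRM1 (0.983 to 1.021). Under TMM scaling, intervals thus lay above 1 for 5 genes and below 1 for 2, 7 of 10. Over all genes 27.5% lay above 1 and 23.0% below, 50.5% together. The median log2 ratio was 0.03 for the members and 0.012 for all genes, and with plain library totals the members' median was -0.01. Each of the ratios of CLK1, TRA2B, TRA2A and CLK3 moved by less than 0.02 in log2 when the principal-transcript GC trend was removed.

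With both proteins and TMM scaling, 5 of the genes lay lower than the control and 4 higher, beyond their counting intervals. That made 9 of 10. Over all genes 35.3% lay below 1 and 33.4% above, 68.8% together. The lowest ratio was that of SRPK2, at 45.04 against 52.0 CPM, 0.867 times (0.835 to 0.899), followed by CLK1 (0.906, 0.873 to 0.941), SRPK1 (0.913, 0.892 to 0.935), CLK4 (0.915, 0.865 to 0.967) and TRA2B (0.942, 0.926 to 0.959). CLK2 was the highest, at 145.2 against 129.9 CPM, 1.117 times (1.093 to 1.142). CLK3 was at 1.063 times (1.032 to 1.096), SRRM2 at 1.062 (1.055 to 1.070) and TRA2A at 1.038 (1.012 to 1.064). SRRM1 was at 0.984 times (0.966 to 1.003). With plain library totals the log2 ratio of TRA2A in this comparison was 0.0087 and that of SRRM1 was -0.068. The median log2 ratio of the 10 was -0.05, against -0.0058 for all genes. With the principal-transcript GC trend removed the median was 0.0149. TRA2A was then furthest above the control, at 1.130 times (1.102 to 1.158), CLK2 was at 1.075 (1.052 to 1.099) and SRPK2 at 0.9503 (0.916 to 0.986). TRA2B turned to above the control, at 1.022 (1.004 to 1.040), and SRRM2 to below it, at 0.984 (0.977 to 0.992). The intervals of CLK1, CLK3, CLK4, SRPK1 (0.991, 0.967 to 1.014) and SRRM1 (1.010, 0.991 to 1.029) included 1. With the trend over longest transcripts removed instead, those of CLK3 (1.106, 1.073 to 1.140) and SRPK1 (0.965, 0.942 to 0.988) excluded 1. The intervals of CLK1, CLK4 and SRRM1 included 1 in that setting too.

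**Figure D3:**
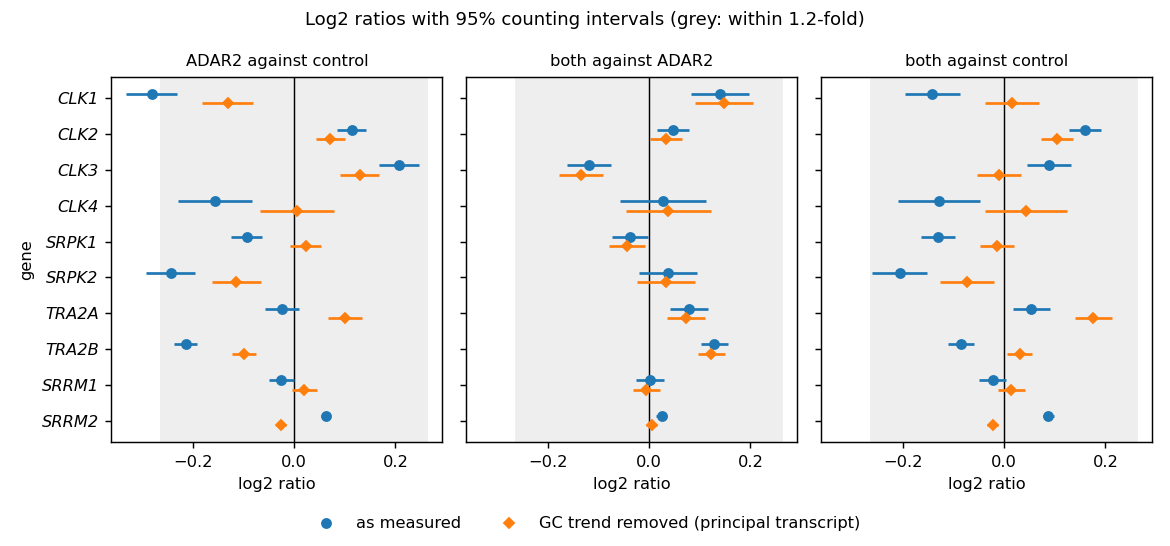
Log2 ratios of the 10 genes (horizontal axis) in the 3 comparisons, as measured (blue circles) and with the GC trend of principal transcripts removed (orange diamonds), with bars for the 95% counting interval and grey for differences within 1.2-fold. As measured, CLK1 in ADAR2 against control is the 1 point outside the grey band, and the blue and orange points differ little in both against ADAR2.

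Shares within a family do not depend on how libraries are scaled. CLK1 gave 18.5% of all CLK reads in the control (exact binomial interval 18.1% to 18.8%), 14.6% in the ADAR2 library (14.3% to 15.0%) and 16.0% with both proteins (15.5% to 16.4%), and no 2 of these intervals overlap. CLK3 gave 25.6% (25.2% to 26.0%), 28.4% (28.0% to 28.9%) and 25.9% (25.4% to 26.5%), so that the ADAR2 library stood apart and the other two overlapped. CLK2 gave 47.7%, 49.8% and 50.9%, and CLK4 8.25%, 7.14% and 7.20%. The summed CLK level changed little, at 272, 282 and 285 CPM. SRPK2 gave 29.6% of the SRPK reads in the control (29.1% to 30.2%), 27.5% in the ADAR2 library (26.9% to 28.1%) and 28.5% with both proteins (27.8% to 29.3%). TRA2A gave 31.7% of the TRA2 reads (31.3% to 32.1%), then 34.6% (34.2% to 35.1%) and 33.8% (33.3% to 34.4%). SRRM1 gave 14.0%, 13.3% and 13.2% of the SRRM reads. CLK1, CLK4, SRPK2 and SRRM1, whose shares were smaller in both overexpressing libraries than in the control, have the more AT-rich principal transcripts of their families. TRA2B, whose share was also smaller, has 42.7% GC against 42.0% for TRA2A in principal transcripts. In longest transcripts TRA2B has 40.3% against 41.1% for TRA2A. The part of base composition in these shares was not tested. For SRPK2 the intervals of the control and of the library with both proteins overlap.

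**Figure D4:**
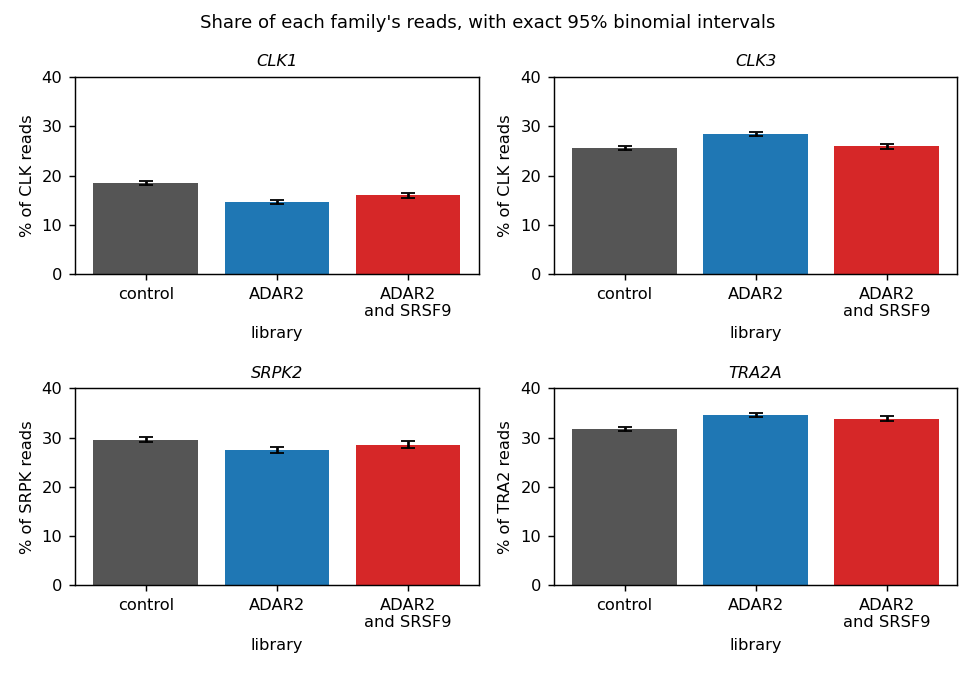
Share of the reads of its family, in percent (vertical axis, from 0), for CLK1, CLK3, SRPK2 and TRA2A in the 3 libraries, with exact 95% binomial intervals as error bars. CLK1 has 18.5%, 14.6% and 16.0% of CLK reads, and CLK3 is highest in the ADAR2 library at 28.4%.

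Rows that share sequence with the members were looked at for spill-over. SRRM2-AS1, an antisense RNA with 646, 748 and 644 reads, was at 4.18, 5.57 and 6.72 CPM. It stood at 1.33 times the control with ADAR2 (1.198 to 1.483) and 1.61 times with both proteins (1.44 to 1.79), while SRRM2 itself was at 1.044 and 1.062 times. Its transcripts match 1.19% of the windows of SRRM2, on the opposite strand. Reads in that shared part cannot be told apart from those of SRRM2 if counting ignored strand, which the sources used here do not say. The pseudogene rows SRRM1P3 (166, 146 and 81 reads) and RP11-255B23.1 (473, 419 and 207 reads, named for its shared sequence, outside the rule for named genes) are copies of SRRM1. RP11-255B23.1 was at 0.692 times its ADAR2 level with both proteins (0.583 to 0.819), while SRRM1 was at 1.002 times, and SRRM1P3 at 0.778 times (0.585 to 1.026). SRRM1P2 had 0 reads in each library. EDC3, named for its shared sequence, overlaps the CLK3 transcript on the opposite strand over 5.80% of its windows. It was at 1.037 times the control with ADAR2 (1.011 to 1.064), against 1.154 for CLK3. AC006026.10, a pseudogene row matching 4.75% of the windows of CLK2, had 137, 107 and 66 reads. With both proteins it was at 0.777 times the control (0.570 to 1.049), against 1.117 for CLK2. LHFPL5, which matches SRPK1 on the opposite strand, had 4, 13 and 3 reads. The SRPK2 pseudogene row RP11-442A17.2 had 2, 1 and 2.

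The related genes were taken from 4 lists. The 11 measured SR protein genes other than SRSF9, the substrates of these kinases, had 0 members apart by 1.2-fold in each comparison. In the order used above, 13.9%, 13.9% and 26.5% of all genes were apart. Among genes at a mean CPM of 10 or more it was 7.61%, 4.31% and 18.5%. The SR protein genes had median log2 ratios of -0.08, 0.01 and -0.06 (all genes -0.00094, 0.012 and -0.0058). SRSF3 had the ratio furthest from 1 in the first 2 comparisons, at 0.863 times the control with ADAR2 (0.854 to 0.873) and 1.108 times the ADAR2 level with both proteins (1.095 to 1.122). SRSF12 had the one furthest from 1 in the last, at 0.861 times (0.804 to 0.923). With the GC trend over longest transcripts removed, the medians were 0.03, 0.0075 and 0.09 (all genes 0.0049, -0.0036 and -0.0018), and 1 gene was apart, higher in both against control, where 16.3% of all genes were apart. That was SRSF6, named after its value was seen, at a log2 ratio of 0.35. In the same setting 9.08% of all genes were apart in ADAR2 against control and 13.3% in both against ADAR2. Phosphatases and import factors (11 measured) had medians of -0.09, 0.02 and -0.13. Against 13.9%, 13.9% and 26.5% of all genes, 0 were apart in the first 2 comparisons and 1, higher, in the last. That was PPP1R10, a nuclear targeting subunit of protein phosphatase 1, at 1.205 times the control (1.174 to 1.237). TNPO1, an importin, was the furthest from the control with ADAR2 at 0.849 times (0.835 to 0.864). With the same GC trend removed 0 of these genes were apart in any comparison, with PPP1R10 at a log2 ratio of 0.17 in both against control and TNPO1 at -0.07 in ADAR2 against control.

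Among other kinases linked to splicing factors or related to CLK (17 of 18 measured, medians -0.0079, -0.0062 and -0.04), 2 were higher with ADAR2, 1 higher and 1 lower in both against ADAR2, and 2 higher and 1 lower in both against control. Over all genes 13.9%, 13.9% and 26.5% were apart in these comparisons, and 7.61%, 4.31% and 18.5% at a mean CPM of 10 or more. SRPK3, the muscle-enriched SRPK gene, was the furthest apart. It had 263, 294 and 350 reads, or 1.286 times the control with ADAR2 (1.085 to 1.525), 1.67 times the ADAR2 level with both proteins (1.42 to 1.95) and 2.14 times the control with both (1.82 to 2.53). Its mean level was 2.51 CPM, against 47.0 CPM for SRPK2 and 117.4 CPM for SRPK1. DYRK1B was at 1.242 times the control with ADAR2 (1.174 to 1.314), DYRK4 at 0.800 times the ADAR2 level with both proteins (0.750 to 0.853), DYRK1A at 0.828 times the control with both proteins (0.795 to 0.862) and CDK11A, which has the near-identical copy CDK11B, at 1.277 times (1.104 to 1.478). With the same GC trend removed, 0 were apart in ADAR2 against control, SRPK3 (higher) and DYRK4 (lower) were in both against ADAR2, and SRPK3 alone (higher) was in both against control.

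Other RS-domain and speckle genes (30 of 32 measured) had medians of -0.07, 0.02 and -0.03. Apart were 1 lower, then 1 higher, then 1 higher and 2 lower, against 13.9%, 13.9% and 26.5% of all genes. SCAF8, which binds RNA polymerase II, was at 0.815 times the control with ADAR2 (0.787 to 0.844) and 0.832 times with both proteins (0.801 to 0.865). ZRANB2, a zinc finger splicing factor, was at 0.802 times the control with both proteins (0.790 to 0.814), and CCNL2, a cyclin of the CDK11 kinases, at 1.234 times (1.213 to 1.255). SRRM5 was at 1.215 times the ADAR2 level with both proteins (1.005 to 1.468). With the same GC trend removed, CCNL2 in both against control was the 1 gene of this list apart in any comparison. The 3 genes nearest to CLK1 in the 2 log2 ratios against the control, among 10352 genes with a mean CPM of 10 or more, were ASAH2B, LIMS1 and SUB1, at Euclidean distances of 0.0088, 0.0092 and 0.0095, from 3 libraries.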

How the data were processed

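The deposited table gives raw counts of reads for each gene in the 3 libraries, as the authors made them. Columns were matched to samples by the library code in the labels. The submitters' processing notes name STAR, SAMtools, Picard, GATK and hg19. Which program counted the reads, and whether by strand, is not given in the sources used here. Libraries were built from Trizol-purified RNA with a NEBNext Ultra Directional kit, per the labels' protocols.

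Counts were scaled by TMM (edgeR 4.0.16, R 4.3.3; factors 1.01, 1.01 and 0.979). Log2 ratios used a prior count of 0.5, and ratios have exact Clopper-Pearson 95% counting intervals. The floor of 3 reads is 0.0194, 0.0223 and 0.0313 CPM. Because a group has 1 library, no test across samples was made. The ratios and intervals were tested on simulated data drawn from Poisson distributions. The simulation held counting error only, without other variation between libraries and without a GC trend, so it does not cover those. Other steps used Python 3.11.15, numpy 2.4.6, pandas 2.3.3, scipy 1.17.1 and matplotlib 3.10.9.

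Lengths, GC content and sequences came from GENCODE v29 on GRCh38, which held all 10 members and 51801 identifiers. A principal transcript is the one with the best APPRIS level, then the longest. The GC trend was the median log2 ratio in 50 bins, smoothed over 5, of protein-coding genes at 10 CPM or more.

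Named genes are the members, their annotated copies and antisense rows, ADARB1 and SRSF9, from each list up to 5 members 1.2-fold apart or else the 1 with the ratio furthest from 1, and the 3 genes nearest to the member with the widest span. The members and lists were chosen with earlier results of these data known. Family shares and shared sequence were added after the values were seen. The alternatives are given at the end, with DESeq2 1.42.0 size factors among them.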

Additional observations from a re-analysis of the deposited data

How the results depend on the processing

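No paired analysis was possible because each group had 1 library. Of the 30 member ratios, 30 stayed within their counting intervals with upper-quartile scaling and with a prior count of 5. With DESeq2 size factors it was 28, with ADARB1, SRSF9 and mitochondrial genes left out of the library size also 28, and with plain library totals 16. The sign of SRRM1 in both against ADAR2 turned under the last 3 of these scalings, and those of CLK4, SRPK2 and SRRM2 with plain totals. Plain totals moved the members' median to -0.012 in both against ADAR2 and -0.10 in both against control. Removing the GC trend left 9 of 30 within their intervals, and 10 ratios changed sign (12 with principal transcripts). The medians became -0.0014 in ADAR2 against control and 0.0396 in both against control, or 0.0127 and 0.0149 with principal transcripts. The count of members apart in ADAR2 against control stayed at 1 with longest transcripts, CLK3 in place of CLK1, and was 0 with principal transcripts, at 1.5-fold and with intervals wholly beyond 1.2-fold.

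The numbers of all genes 1.2-fold apart were 2232, 2238 and 4262. In that order they were 6036, 5833 and 8542 with no filter on low counts and 789, 447 and 1918 at a mean CPM of 10 or more. Protein-coding genes alone gave 862 and 2613 in the last 2. Without the GC trend those against the control were 1416 and 2538, and with principal transcripts, which fewer genes have, they were 773, 802 and 1193. Counting error is widest for CLK4, the least abundant member.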
